A study of Homo sapiens with 10 samples.

Results

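The stathmins are a small family of tubulin-binding phosphoproteins encoded by STMN1, STMN2, STMN3 and STMN4. Their transcripts were followed in RNA sequencing of SH-SY5Y, an established human neuroblastoma line that is often used as a neuron-like cell. The members were taken by gene symbol from a table of 58174 genes, with earlier results of these data known. STMN2 is named in the study's title and had been picked by the study on cells of this kind. All 4 were abundant enough to be tested, as were 17118 genes in all, which reached 1 TPM on average over the libraries. TPM is transcript abundance per unit of transcript length, scaled to the same total in each library, so levels of different genes can be set side by side.

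The knockdown experiment held 3 libraries from cells transfected with an siRNA pool against TDP-43 (siTDP-43) and 3 from cells transfected with a control pool (siControl), each at 50 nM for 96 hours. The genome editing experiment held 2 libraries of homozygous N352S mutant cells (N352S) and 2 libraries of cells whose TDP-43 is wild type (WT). TDP-43 is the nuclear RNA-binding protein encoded by TARDBP. The study asked which transcripts change with loss of TDP-43 and which with the mutant protein. Replicates are labelled biological, but neither separate cultures nor edited clones are named, and p-values therefore cover only the spread among the libraries of a group, which may be technical. In bulk RNA such as this, fewer cells of a type and less RNA per cell cannot be told apart.

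Stathmins bind tubulin dimers and promote the shrinking of microtubules, and phosphorylation by cell cycle and signalling kinases switches this activity off. STMN1 encodes the cytosolic founding member, which is abundant in dividing cells, while STMN2, STMN3 and STMN4 encode neural members that carry an added stretch at the amino terminus whose cysteines are palmitoylated and hold the protein on Golgi and vesicle membranes. Stathmin-2 is concentrated in growth cones and is known for its role in axon growth and repair, and TDP-43 is known to bind UG-rich RNA.

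The added stretch is missing from STMN1 and present in STMN2, STMN3 and STMN4. The first 40 codons of the cytosolic STMN1 (ENSG00000117632, chromosome 1, 25884181 to 25906991, minus strand) and of the membrane-bound STMN3 (ENSG00000197457, chromosome 20, 63639705 to 63657682, minus strand) are therefore shown, 5′ to 3′, from the GENCODE 29 transcripts on GRCh38. Capitals mark cysteine codons.
STMN1: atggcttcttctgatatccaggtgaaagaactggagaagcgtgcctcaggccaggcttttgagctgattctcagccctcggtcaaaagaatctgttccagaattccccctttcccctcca
STMN3: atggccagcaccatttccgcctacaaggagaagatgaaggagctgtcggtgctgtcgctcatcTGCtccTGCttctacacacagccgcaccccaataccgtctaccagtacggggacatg
The STMN1 reading frame of 149 codons holds no cysteine codon at all. In STMN3, with 180 codons, 34 residues precede the position that aligns with the first residue of STMN1, and 2 of them are cysteines. STMN2, with 179 codons, also has 34 residues and 2 cysteines there, and STMN4, with 216 codons, has 71 residues and 4 cysteines.

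Pairwise alignments of the encoded proteins covered the shared part and, among STMN2, STMN3 and STMN4, the added stretch as well. Identity over the aligned residues lay between 64.2% for STMN3 with STMN4 and 73.2% for STMN2 with STMN3. STMN1 was 69.0% identical to STMN2, 65.3% to STMN3 and 69.7% to STMN4, and STMN2 was 67.6% identical to STMN4.

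Libraries were comparable in the number of genes reaching 1 TPM, at 16711 to 17398, and replicate libraries correlated at 0.977 to 0.99 across genes. Depth is unknown, since TPM keep none. TARDBP averaged 64.35 ± 2.91 TPM in siTDP-43 libraries and 255.8 ± 0.43 TPM in siControl libraries (SD, n = 3 each), and 122.6 ± 0.33 TPM in N352S libraries against 200.5 ± 6.97 TPM in WT libraries (SD, n = 2 each). Noradrenergic neuroblastoma markers such as DBH and HAND2 were high in every library, with TH low at 0.36 to 3.42 TPM, and the Schwann cell markers FOXD3, SOX10 and CDH19 were at or near 0. Summed TPM of the 12 noradrenergic markers lay between 6017 and 6205 in siTDP-43, 5352 and 5529 in siControl, 4994 and 5251 in N352S and 5375 and 5470 in WT libraries. Those of 13 mesenchymal markers lay between 756.9 and 785 in siTDP-43, 725.6 and 797.6 in siControl, 978.9 and 1020 in N352S and 595.6 and 631 in WT libraries, led in N352S by VIM, which encodes the intermediate filament vimentin (687.5 against 361.5 TPM). Those of 8 Schwann cell markers lay between 32.8 and 35.2 in siTDP-43, 58.4 and 58.9 in siControl, 66.7 and 70.3 in N352S and 54.5 and 62.0 in WT libraries, most of it PMP22. Mesenchymal markers went both ways in N352S libraries, with VIM higher and COL3A1 lower, at 4.62 against 13.24 TPM in WT libraries. The part of the markers in the stathmin results was not tested.

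STMN1 was the most abundant member in every library, with a mean of 1558 TPM over the 10 libraries, which ranked 70th among 12753 tested protein-coding genes. STMN2 averaged 484.9 TPM (ranked 211th), STMN3 174.6 TPM (715th) and STMN4 28.88 TPM (5521st). The order STMN1, STMN2, STMN3, STMN4 held in each siControl, N352S and WT library. In each of the 3 siTDP-43 libraries STMN3 stood above STMN2.

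**Figure D1:**
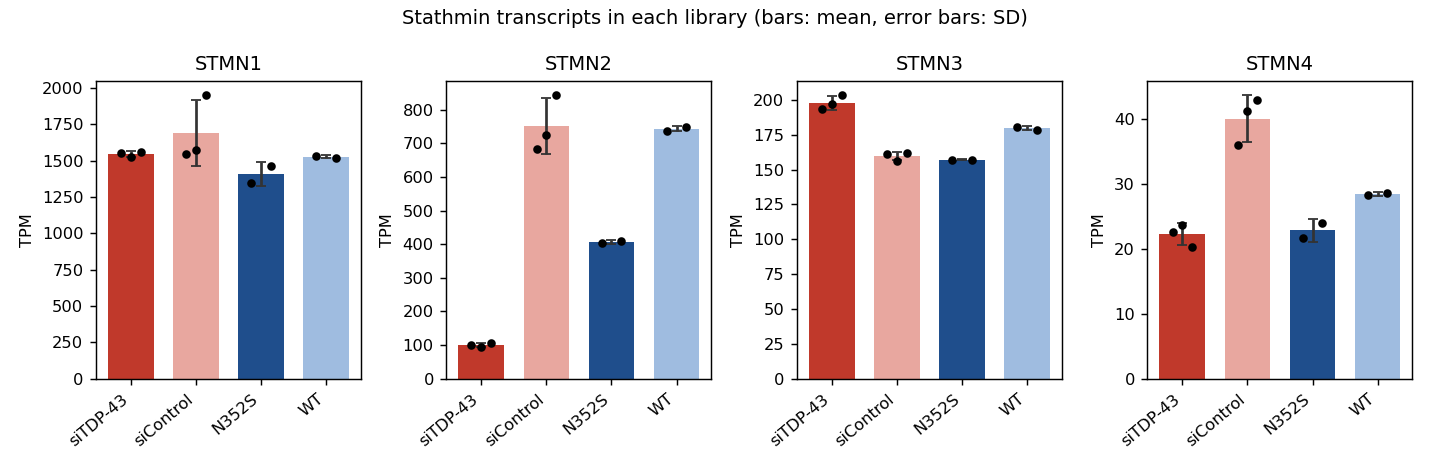
TPM of the 4 stathmins (vertical axes, 1 panel each, all from 0) in siTDP-43, siControl, N352S and WT libraries, with points for libraries, bars for group means and error bars for SDs. STMN2 shows the widest gap, at 100.3 TPM in siTDP-43 against 750.1 TPM in siControl libraries and 406.2 TPM in N352S against 742.7 TPM in WT libraries, while the STMN1 groups lie close together.

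STMN2 (ENSG00000104435, chromosome 8, 79610814 to 79666175, plus strand) was measured at 99.2, 95.6 and 106 TPM in the siTDP-43 libraries, against 682.7, 724.9 and 842.6 TPM in the siControl libraries. Every siTDP-43 library lay far below every siControl library, and the siTDP-43 values were close to each other. Lack of overlap between these groups was common, at 43.6% of all tested genes. The siTDP-43 mean was 13.4% of the siControl mean, a 7.48-fold lower level. In limma the change was -2.89 ± 0.07 (log2 scale, SE; 95% interval -3.05 to -2.72; adjusted p = 1.2e-07), lower in 3 of 3 libraries. With TPM as deposited it was the most negative change of 12753 protein-coding genes, and the difference of -649.8 TPM was also the most negative of any tested gene, but since the study chose STMN2 for its loss these ranks and the test describe it and are not independent evidence. Gene-level TPM do not separate the transcript forms of a gene, so full-length and prematurely polyadenylated STMN2 RNA were not measured apart.

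In the edited cells STMN2 stood at 402.9 and 409.6 TPM in the N352S libraries, against 737.3 and 748.1 TPM in the WT libraries. The pairs did not overlap, and both N352S libraries lay at little more than the midpoint between WT and 0. With 2 libraries in each group, 60.1% of all tested genes did not overlap, so lack of overlap alone says little here. The N352S mean was 54.7% of the WT mean (log2 change -0.87 ± 0.09, 95% interval -1.07 to -0.67; limma adjusted p = 2e-04; lower in 2 of 2 libraries). By log2 change it ranked 419th from the lowest of 17118 genes. Among the 1547 genes that averaged 100 TPM or more it ranked 15th, and its difference of -336.5 TPM was the 15th most negative of all tested genes.

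STMN4 (ENSG00000015592, chromosome 8, 27235323 to 27258420, minus strand), the least abundant member, is a neural stathmin best known from the brain. It was measured at 22.6, 23.6 and 20.3 TPM in the siTDP-43 libraries, against 35.9, 41.1 and 42.9 TPM in the siControl libraries, with no overlap between groups. The siTDP-43 mean was 55.5% of the siControl mean (log2 change -0.82 ± 0.08, 95% interval -0.999 to -0.64; limma adjusted p = 0.00019; lower in 3 of 3 libraries). Among protein-coding genes this was the 112th most negative of 12753 changes.

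Under the N352S genotype STMN4 stood at 21.6 and 24.0 TPM, against 28.2 and 28.6 TPM in the WT libraries. Both N352S libraries lay below both WT libraries, at 80.3% of the WT mean. The change did not pass the threshold (log2 -0.31 ± 0.10, 95% interval -0.53 to -0.09; limma adjusted p = 0.055, with 0.0319 to 0.23 over 20 alternatives). Of these, 4 passed, 2 of them without siControl library 1 (limma adjusted p = 0.0319) or 3 (0.0477).

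STMN3, whose product is a membrane-bound neural stathmin like that of STMN2, moved the other way on knockdown. It was measured at 193.3, 196.9 and 203.3 TPM in the siTDP-43 libraries, against 160.8, 156.4 and 161.8 TPM in the siControl libraries, and the groups did not overlap. The siTDP-43 mean was 124% of the siControl mean (log2 change 0.31 ± 0.03, 95% interval 0.24 to 0.38; limma adjusted p = 0.00022; higher in 3 of 3 libraries). Its difference of 38.15 TPM is small beside the -649.8 TPM of STMN2.

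In N352S libraries STMN3 was lower, at 157.2 and 156.9 TPM, against 180.6 and 178.7 TPM in WT libraries. The pairs did not overlap and each pair was tight. The N352S mean was 87.4% of the WT mean (log2 change -0.19 ± 0.04, 95% interval -0.28 to -0.11; limma adjusted p = 0.0073; lower in 2 of 2 libraries), and without WT library 79 the adjusted p was 0.0508.

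STMN1, the stathmin of dividing cells, was not called in either experiment. It was measured at 1555, 1525 and 1563 TPM in the siTDP-43 libraries, against 1544, 1574 and 1951 TPM in the siControl libraries, and the groups overlapped. The siControl library numbered 3 stood apart at the high end, and it was also the highest siControl library for STMN2, STMN3 and STMN4 and the lowest of all libraries in its share of mitochondrially encoded transcripts (12%, where siTDP-43 libraries had 15.5% to 16.2% and the remaining siControl libraries 13.7% and 14.3%). The log2 change was -0.12 ± 0.08 (95% interval -0.30 to 0.06; limma adjusted p = 0.32), which leaves room for levels between 0.812 and 1.05 times siControl. Without that library it was -0.01 and the limma adjusted p was 0.882. STMN2 without it was at -2.80, STMN3 at 0.32 and STMN4 at -0.77 on the log2 scale, all still called.

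In N352S libraries STMN1 stood at 1350 and 1466 TPM, against 1533 and 1518 TPM in WT libraries. The pairs did not overlap, with N352S the lower, but the gap within the N352S pair was wider than the gap between the higher N352S library and the nearest WT library. The log2 change was -0.12 ± 0.10 (95% interval -0.34 to 0.11; limma adjusted p = 0.45). It was -0.06 without N352S library 81 and -0.18 without N352S library 82.

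**Figure D2:**
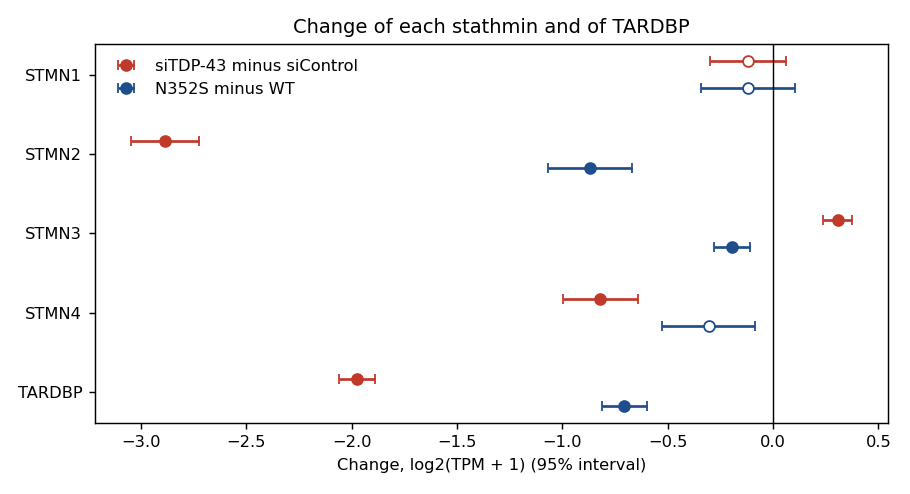
Change of each stathmin and of TARDBP on the log2(TPM + 1) scale (horizontal axis), siTDP-43 minus siControl above and N352S minus WT below for each gene, with 95% intervals from limma and filled points for adjusted p under 0.05. STMN2 lies furthest left in both experiments, at -2.89 on knockdown and -0.87 in N352S cells, and STMN3 lies on opposite sides of 0, at 0.31 on knockdown and -0.19 in N352S cells.

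On knockdown, then, 2 of the 4 members were called lower and 1 higher, where 19.8% of all tested genes were called lower and 6.19% higher. In N352S cells 2 of 4 were called lower and 0 higher, where 11.9% of all tested genes were called lower and 8.28% higher. Without WT library 79, 1 of 4 was called lower (STMN2), and the calls over all genes were 1019 lower and 813 higher, against 2033 and 1417 with all libraries. Calls in N352S cells were 1239 lower without WT library 80, 1242 lower without N352S library 82 and 918 higher without N352S library 81, and on knockdown 669 were higher without siTDP-43 library 3, against 1059 with all libraries. With the N352S and WT libraries fitted alone, 990 were lower and 901 higher. With 4 members these counts say nothing of the family beyond the values of each. The median change of all tested genes was -0.08 on knockdown and -0.03 under the genotype, on the log2 scale. Under median-of-ratios scaling, which centres that median near 0, calls on knockdown were split as 2076 lower and 1935 higher, against 3389 and 1059 with TPM as deposited, and the members' calls and directions on knockdown were the same under both.

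**Figure D3:**
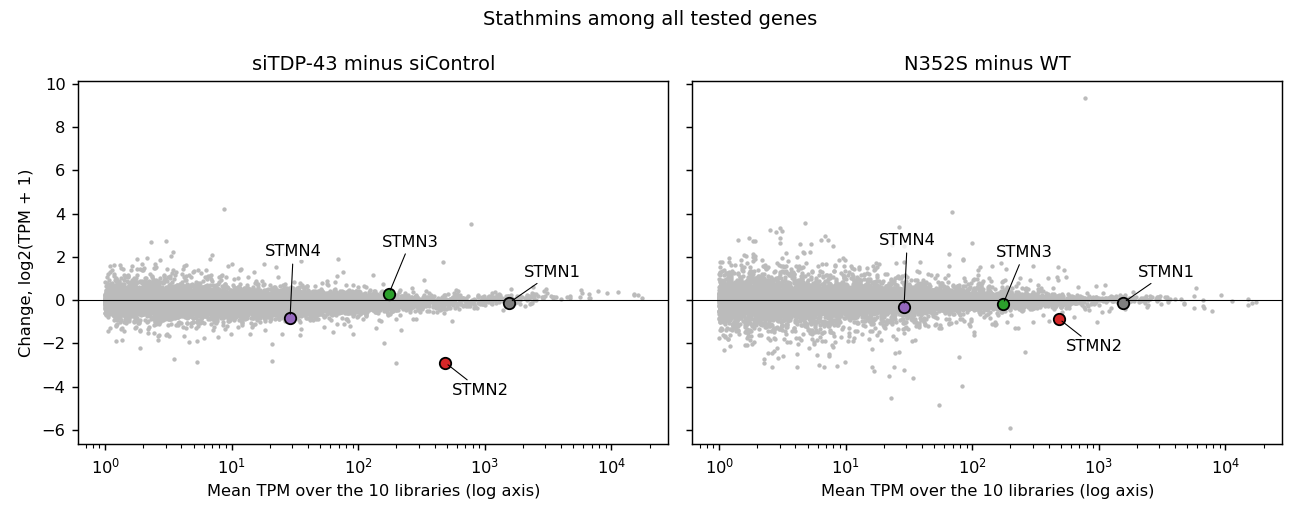
Change on the log2(TPM + 1) scale (vertical axis) against mean TPM over the 10 libraries (horizontal log axis) for 17118 tested genes in grey, with the stathmins in colour, for siTDP-43 minus siControl on the left and N352S minus WT on the right. STMN2 lies at the lower edge on the left, at -2.89, far below other genes of its level, and within the lower fringe of genes on the right, at -0.87.

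The effects of knockdown and genotype were set against each other in the same fit, by the difference of the changes. For STMN2 the knockdown change minus the genotype change was -2.02 ± 0.11 (log2 scale, 95% interval -2.27 to -1.76; limma adjusted p = 9.5e-06). For STMN4 the difference was -0.51 ± 0.13 (adjusted p = 0.018 in limma), a call lost in 3 of 19 alternatives, without WT library 79 (limma adjusted p = 0.064), WT library 80 (0.0529) or N352S library 82 (0.0672). For STMN3, which was higher on knockdown and lower in N352S cells, the difference was 0.50 ± 0.05 (limma adjusted p = 0.00017). For STMN1 it was -0.00 with a 95% interval of -0.29 to 0.29. Of all tested genes, 22% were called for this difference. TARDBP transcript was itself at 25.2% of siControl in siTDP-43 libraries and at 61.1% of WT in N352S libraries, and the part of its level in the difference was not tested.

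The summed TPM of the family was 1870, 1841 and 1893 in siTDP-43 libraries, against 2423, 2496 and 2998 in siControl libraries, a mean of 70.8% with no overlap. In N352S libraries it was 1931 and 2057, against 2479 and 2474 in WT libraries, a mean of 80.5%, again with no overlap. STMN2 made up 84.3% of the knockdown difference of -771.1 TPM and 69.7% of the genotype difference of -482.6 TPM. STMN1 made up 18.4% of the knockdown and 24.4% of the genotype difference, although its own change was not called. Its part rested on single libraries, at 1.86% of the knockdown difference without siControl library 3 and 14.2% of the genotype difference without N352S library 81.

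The make-up of the family differed between groups mainly in the shares of STMN1 and STMN2. STMN2 held 5.31%, 5.19% and 5.60% of the family's TPM in siTDP-43 libraries, against 28.2%, 29.04% and 28.1% in siControl libraries. In N352S libraries it held 20.9% and 19.9%, against 29.7% and 30.2% in WT libraries. The N352S libraries thus lay between the siTDP-43 libraries and the siControl and WT libraries, whose STMN2 shares were close to each other.

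STMN1 filled the family correspondingly, since shares sum to a fixed total. It held 82.9 ± 0.28% in siTDP-43 and 63.9 ± 1.03% in siControl libraries (SD, n = 3 each), and 70.6 ± 0.99% in N352S and 61.6 ± 0.33% in WT libraries (SD, n = 2 each). STMN3 held 10.6 ± 0.22% in siTDP-43 and 6.10 ± 0.64% in siControl libraries, and 7.89 ± 0.36% in N352S and 7.25 ± 0.04% in WT libraries. STMN4 held 1.19 ± 0.11% in siTDP-43 and 1.52 ± 0.11% in siControl libraries, and 1.14 ± 0.03% in N352S and 1.15 ± 0.01% in WT libraries.

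None of these shares overlapped between siTDP-43 and siControl libraries, and each gave a two-sided exact permutation p of 0.1, the smallest that 3 against 3 allow. In the genotype experiment STMN4 alone overlapped (exact p = 1), and the other shares gave 0.33, the smallest that 2 against 2 allow. Adjusted by Benjamini-Hochberg over 8 values per experiment (4 shares, 3 ratios and the total), these exact p-values were 0.1 on knockdown and 0.381 for the genotype, with STMN4 at 1. With siTDP-43 and siControl libraries paired by number, an exact sign-flip test gave p = 0.25 for each share and ratio, the smallest that 3 pairs allow.

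**Figure D4:**
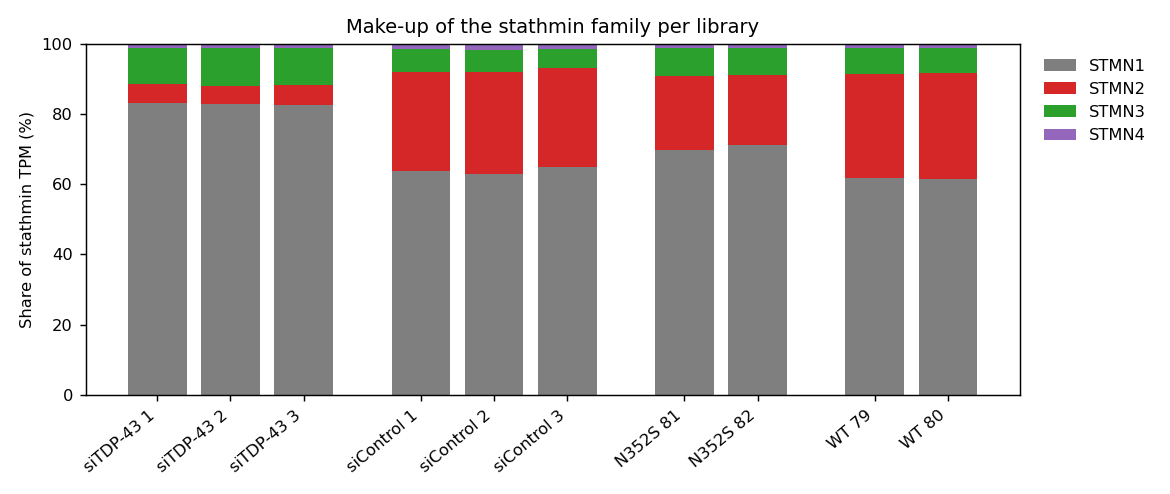
Share of each stathmin in the family's summed TPM (vertical axis, percent) for each of the 10 libraries, in the order siTDP-43, siControl, N352S and WT. The STMN2 segment is 5.19% to 5.60% in siTDP-43 libraries against 28.1% to 29.04% in siControl libraries, and 19.9% to 20.9% in N352S against 29.7% to 30.2% in WT libraries.

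Because STMN1 dominates the sum, shares were also taken among the 3 neural, membrane-bound members alone. STMN2 then held 31.3 ± 0.97% in siTDP-43 and 78.9 ± 1.44% in siControl libraries, and 69.3 ± 0.07% in N352S and 78.1 ± 0.26% in WT libraries. STMN3 held 61.8 ± 0.47% in siTDP-43 and 16.9 ± 1.42% in siControl libraries, so the main neural stathmin transcript in TDP-43-depleted cells was STMN3 and in the other groups STMN2. STMN3 held 26.8 ± 0.32% in N352S and 18.9 ± 0.27% in WT libraries. STMN4 held 6.94 ± 0.68% in siTDP-43 and 4.21 ± 0.21% in siControl libraries, and 3.89 ± 0.25% in N352S and 2.99 ± 0.01% in WT libraries, which on knockdown is a direction opposite to its share of all 4.

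Ratios within a library do not depend on how the library is scaled. The ratio of STMN2 to STMN3 was 0.507 in siTDP-43 and 4.68 in siControl libraries (geometric means), a 9.24-fold lower ratio on knockdown, and 2.59 in N352S and 4.13 in WT libraries. The ratio of STMN2 to STMN1 was 0.0647 in siTDP-43 and 0.445 in siControl libraries, 6.87-fold lower, and 0.289 in N352S and 0.487 in WT libraries. The ratio of STMN2 to STMN4, the other member that fell on knockdown, was 4.53 in siTDP-43 and 18.8 in siControl libraries, 4.14-fold lower, and 17.8 in N352S and 26.2 in WT libraries. No ratio overlapped between the groups of an experiment, and each exact permutation p was the smallest possible, 0.1 on knockdown and 0.33 for the genotype.

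WT and siControl cells did not carry the same levels of every member, and experiment and group cannot be told apart in that comparison. STMN2 averaged 742.7 ± 7.70 TPM in WT (n = 2) and 750.1 ± 82.9 TPM in siControl libraries (n = 3), with a WT minus siControl change of -0.01 ± 0.08 (log2 scale, 95% interval -0.19 to 0.17; limma adjusted p = 0.94). STMN3 was higher in WT than in siControl libraries by 0.17 ± 0.03 (limma adjusted p = 0.0044), and STMN4 was lower, with a change of -0.48 ± 0.09 (limma adjusted p = 0.0028). STMN1 was not called (log2 -0.14 ± 0.09; limma adjusted p = 0.26). Between WT and siControl libraries 39.6% of all tested genes were called.

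Set in order over the 4 groups, STMN2 was highest in siControl and WT libraries, whose ranges overlapped, then lower in N352S and lowest in siTDP-43 libraries. STMN4 was highest in siControl, then WT, and lowest in N352S and siTDP-43 libraries, which overlapped at 21.6 to 24.0 and 20.3 to 23.6 TPM. STMN3 was highest in siTDP-43, then WT, with siControl and N352S libraries lowest and overlapping. STMN1 was lowest in N352S libraries. Its siTDP-43 libraries overlapped both WT and siControl libraries, and WT libraries lay just below siControl libraries.

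Over the 10 libraries STMN2 and STMN4 followed each other in part (Pearson r = 0.74 on the log2 scale), STMN2 and STMN3 ran in opposite order (r = -0.76), and STMN3 and STMN4 also (r = -0.56). Within the genotype experiment the means of STMN2, STMN3 and STMN4 were instead all lower in N352S than in WT libraries. STMN1 followed STMN4 at r = 0.65 and was nearly unrelated to STMN2 (0.22) and STMN3 (0.01). These are descriptions with no test, since the libraries share 4 group levels and TPM of a library share their total.

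The genes differ in architecture. The main STMN2 transcript spans 55362 bases in 5 exons, with a first intron of 25587 bases, 46.2% of the span. STMN4 spans 23064 bases in 7 exons with a first intron of 14549 bases (63.1%), STMN3 13720 bases in 5 exons with a first intron of 9017 bases (65.7%), and STMN1 6036 bases in 5 exons with a first intron of 1113 bases (18.4%). In the spliced transcripts the hexamer TGTGTG, the DNA form of the UG repeat, occurred 0 times in STMN2, 0 times in STMN1, 1 time in STMN3 and 5 times in STMN4, and 65.2% of 19702 longest coding transcripts hold it at least once. Overlapping matches were counted, so a longer repeat can give several hits. The members' transcripts were chosen by annotation and coding length, not as the longest, so that share is not a like-for-like background. The polyadenylation signal AATAAA occurred 2 times in STMN2, 4 times in STMN1, 1 time in STMN3 and 2 times in STMN4. Introns were not searched, and such counts describe letters, not binding.

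The nearest tested protein-coding genes, 3 on each side, show how far a member's change was shared by its surroundings. None of them overlaps a stathmin, and distance was not limited. Over all tested genes 19.8% were called lower and 6.19% higher on knockdown, and 11.9% and 8.28% in N352S cells. Of the 6 around STMN2, 0 were called lower on knockdown and 1 higher (HEY1, a transcriptional repressor downstream of Notch, at 52.8 TPM in siTDP-43 and 40.3 TPM in siControl libraries), with a median change of -0.04 on the log2 scale. In N352S cells 3 of these 6 were called lower and 0 higher, with a median of -0.24. They were HEY1 (13.1 TPM in N352S and 24.5 TPM in WT libraries, log2 -0.85), PKIA, which encodes an inhibitor of protein kinase A (25.8 TPM in N352S and 34.7 TPM in WT libraries, log2 -0.42), and TPD52 (60.02 TPM in N352S and 71.2 TPM in WT libraries, log2 -0.25). The HEY1 change in N352S libraries was thus close to that of STMN2 itself (log2 -0.87), while on knockdown HEY1 was higher.

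Around STMN4, 4 of 6 neighbours were called lower on knockdown and 0 higher, with a median of -0.24. They included DPYSL2, which encodes the microtubule-binding axonal protein CRMP2 (83.5 TPM in siTDP-43 and 110.6 TPM in siControl libraries, log2 -0.40), and the mitophagy receptor gene BNIP3L (89.5 TPM in siTDP-43 and 118.9 TPM in siControl libraries, log2 -0.41), with PNMA2 and EPHX2 at -0.24 and -0.25. STMN4 itself was at -0.82. The lower end of STMN4 lies at 27235323 of chromosome 8, while the nearest of these genes below it, DPYSL2, ends at 26658178. Closer on the other side lie TRIM35 (from 27284887, log2 -0.10) and PTK2B (from 27311482, log2 0.21), neither called on knockdown. On knockdown 19.8% of all tested genes were called lower. In N352S cells 1 of the 6, PNMA2, was called higher and 0 lower. Of the 6 around STMN3, 2 were lower on knockdown (FNDC11 and HELZ2, both at -0.49) and 0 higher, opposite to STMN3. Of those 6, 0 were called in N352S cells in limma (0 at an unadjusted p under 0.05). Around STMN1, 1 of 6 was lower on knockdown (AUNIP, log2 -0.35) and 0 were called in N352S cells in limma (3 at an unadjusted p under 0.05).

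**Figure D5:**
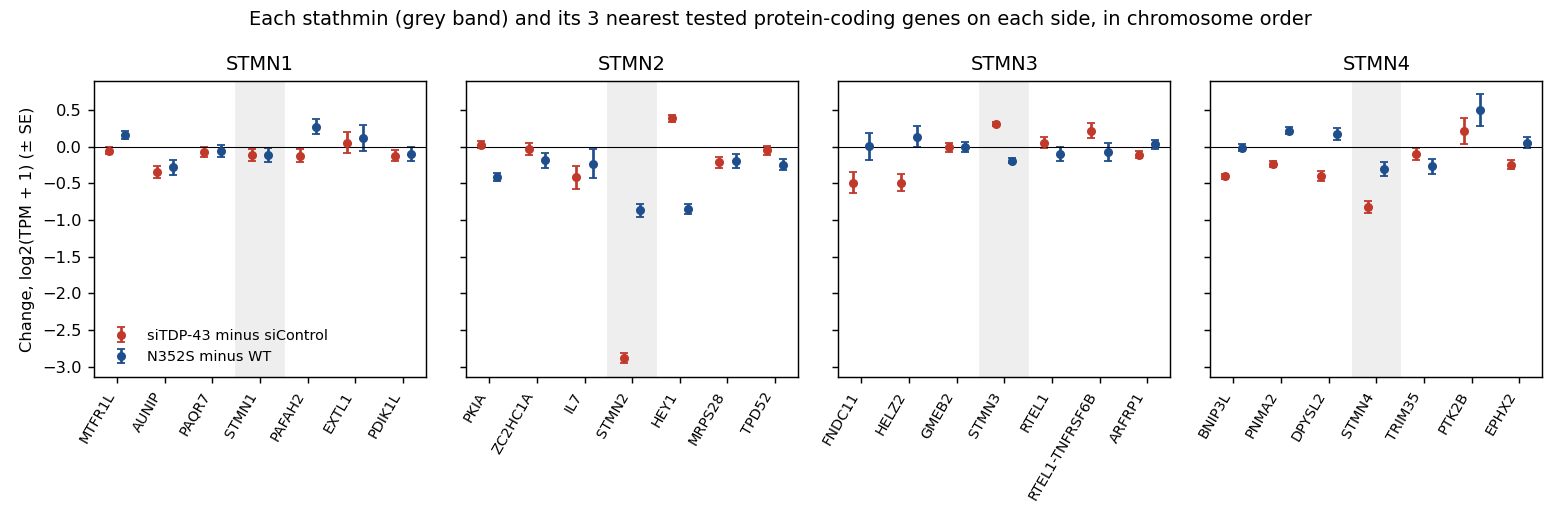
Change on the log2(TPM + 1) scale (vertical axis, ± SE) of each stathmin (grey band) and its 3 nearest tested protein-coding genes on each side, in chromosome order, for siTDP-43 minus siControl and N352S minus WT. On knockdown STMN2 stands alone at -2.89 among neighbours with a median of -0.04, and in N352S cells HEY1 lies level with it at -0.85 against -0.87.

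Among 12125 genes that averaged 5 TPM or more, the members and TARDBP left out, those whose pattern over the 10 libraries was most like each member were listed by Pearson r on the log2 scale, as a description. For STMN2 they were ATAD1 (r = 0.988), an ATPase that clears mislocalised membrane proteins, CAPZA2 (0.986), an actin capping subunit, the noncoding RP11-247C2.2 (0.984), MSANTD4 (0.982) and MBTPS2 (0.981), a protease that activates sterol regulators. All 5 were lowest in siTDP-43 and next lowest in N352S libraries. CAPZA2 averaged 53.3 TPM in siTDP-43 and 104.2 TPM in siControl libraries and 82.2 TPM in N352S and 93.7 TPM in WT libraries, and ATAD1 averaged 49.0 TPM in siTDP-43 and 67.6 TPM in siControl libraries and 60.4 TPM in N352S and 69.8 TPM in WT libraries.

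For STMN3 they were MIR4697HG (0.972), DLK1 (0.965), which encodes a Notch-like surface protein of neuroblastoma and adrenal cells, PIK3R2 (0.948), SRF (0.947), which encodes serum response factor, and QDPR (0.944), which recycles the cofactor of tyrosine hydroxylase. DLK1 averaged 3134 TPM in siTDP-43 and 2046 TPM in siControl libraries and 1905 TPM in N352S and 2395 TPM in WT libraries. For STMN4 they were LRRK1 (0.983), THAP12 (0.977), the replicative helicase subunit MCM6 (0.973), the chromatin kinase TLK1 (0.972) and the RNA-binding protein RBMX (0.969). MCM6 averaged 86.3 TPM in siTDP-43 and 108.7 TPM in siControl libraries and 87.6 TPM in N352S and 98.9 TPM in WT libraries. For STMN1 they were RP11-756P10.3 (0.962), CTD-2089N3.1 (0.954), the mitochondrial rRNA methyltransferase MRM2 (0.953), the TFIID subunit TAF7 (0.951) and LRRFIP2 (0.95), all of which stood lowest in N352S libraries, as STMN1 did.

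Relatives outside the 4 were barely present. STMND1, a stathmin domain gene, was at 0.25 to 1.18 TPM. The pseudogene STMN1P1 was at 0 to 1.3 TPM and STMN1P2 at 0 to 0.11 TPM. As near copies of STMN1 they could share reads with it, so these low values are uncertain.

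Of 22 tested kinases and phosphatases that act on stathmins, 10 were called lower on knockdown and 0 higher (6 and 2 under median-of-ratios scaling). Their median change was -0.21 against -0.08 for all tested genes. Over all tested genes 19.8% were called lower and 6.19% higher on knockdown, and 11.9% and 8.28% in N352S cells. Under median-of-ratios scaling 2076 of 17118 were lower and 1935 higher on knockdown, and 1726 lower and 1781 higher in N352S cells. Each list below is to be read beside these figures. CDK5, a neuronal kinase that phosphorylates stathmin, averaged 77.1 TPM in siTDP-43 and 96.8 TPM in siControl libraries (limma adjusted p = 0.000489), and the mitotic kinases PLK1 (74.5 TPM in siTDP-43 and 98.3 TPM in siControl libraries) and CDK1 (115.9 TPM in siTDP-43 and 136.2 TPM in siControl libraries) were also lower. In N352S cells 4 of the 22 were called lower and 0 higher, with a median of 0.02 against -0.03, and 3 were lower and 1 higher under median-of-ratios scaling. They were led by PPP2CA (162.3 TPM in N352S and 204.1 TPM in WT libraries) and PPP2CB (72.0 TPM in N352S and 89.4 TPM in WT libraries), the catalytic subunits of protein phosphatase 2A, which removes phosphate from stathmin.

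Tubulins are the binding partners of stathmins. The shares called over all tested genes were 19.8% lower and 6.19% higher on knockdown, and 11.9% and 8.28% in N352S cells. Of 12 tubulin genes 9 were called lower and 0 higher on knockdown, with a median of -0.25 (6 and 0 under median-of-ratios scaling, 7 and 1 under quantile normalization), including TUBA1A, an abundant neural alpha-tubulin gene (1668 TPM in siTDP-43 and 2022 TPM in siControl libraries). In N352S cells 1 was called lower (TUBB6) and 1 higher (TUBB4B). Of 13 other microtubule-destabilising genes (kinesin-13 and kinesin-8 motors and severing enzymes), 6 were lower on knockdown and 0 higher (5 and 2 under median-of-ratios scaling), led by the katanin-like KATNAL1 (16.6 TPM in siTDP-43 and 26.7 TPM in siControl libraries). In N352S cells 1 was lower and 2 were higher (1 and 3 under median-of-ratios scaling). Of 21 microtubule-stabilising genes, 9 were lower and 2 higher on knockdown and 7 lower and 2 higher in N352S cells (8 and 2, and 4 and 3, under median-of-ratios scaling). MAP1B, which encodes an axonal microtubule-binding protein, was at 80.2 TPM in siTDP-43 and 132.7 TPM in siControl libraries, and DCX, the doublecortin gene of migrating neurons, was at 37.0 TPM in N352S and 61.4 TPM in WT libraries.

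Stathmin-2 is degraded together with the axon survival factor NMNAT2 under control of the kinase DLK, in mouse neurons. Of 17 genes of that pathway, 5 were lower and 2 higher on knockdown (2 and 3 under median-of-ratios scaling), with MAP3K12, which encodes DLK, higher at 40.1 TPM in siTDP-43 and 29.3 TPM in siControl libraries (limma adjusted p = 0.00478). In N352S cells 1 was lower, MYCBP2, a ubiquitin ligase of the pathway (19.5 TPM in N352S and 25.7 TPM in WT libraries), and 1 was higher, MAP3K13 (33.0 TPM in N352S and 27.4 TPM in WT libraries). Growth cones and axons are the setting in which STMN2, STMN3 and STMN4 are used. Of 21 genes of that setting, 11 were lower and 1 higher on knockdown (10 and 2 under median-of-ratios scaling). Among the lower were ELAVL3 (34.7 TPM in siTDP-43 and 103.1 TPM in siControl libraries) and GAP43, which encodes the growth-associated protein of growth cones (46.7 TPM in siTDP-43 and 74.2 TPM in siControl libraries). In N352S cells 10 were lower and 5 higher. PRPH was lower, at 2.355 TPM in N352S and 37.42 TPM in WT libraries (log2 -3.52, where STMN2 was at -0.87). DPYSL3 was higher, at 564.4 TPM in N352S and 384.9 TPM in WT libraries. The median of the 21 genes was -0.17 on knockdown, against -0.08 for all tested genes (-0.09 against a median near 0 under median-of-ratios scaling). In N352S cells it was -0.17, against -0.03 for all tested genes, of which 11.9% were called lower and 8.28% higher there. On knockdown 19.8% of all tested genes were called lower and 6.19% higher.

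STMN1 is known for its part in dividing cells. Of 21 cell cycle genes, 12 were called lower on knockdown and 0 higher (12 and 1 under median-of-ratios scaling), with a median of -0.27, including MKI67 (75.4 TPM in siTDP-43 and 101.1 TPM in siControl libraries) and the cyclin gene CCNB2 (65.7 TPM in siTDP-43 and 84.8 TPM in siControl libraries), while STMN1 was not called. In N352S cells 1 was lower (MCM5) and 1 higher (TOP2A), or 1 and 4 under median-of-ratios scaling, with a median of 0.01. Calls over all tested genes were 19.8% lower and 6.19% higher on knockdown, and 11.9% and 8.28% in N352S cells.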

How the data were processed

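RNA was extracted with Trizol and sequenced from TruSeq libraries, per the labels' protocols. The table the authors deposited holds TPM per gene with no counts, and the submitters' processing notes name STAR, RSEM and hg38. Tool versions and the annotation used were not given in the sources used here. Columns were assigned by title. Gene positions and transcripts came from GENCODE 29 on the same assembly, which holds 57836 of 58174 identifiers (99.4%).

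Group means of all 10 libraries were fitted to log2(TPM + 1) in limma 3.58.1 (R 4.3.3) with a variance trend and 6 residual degrees of freedom, over the 17118 genes that averaged 1 TPM or more, and adjusted by Benjamini-Hochberg over all of them. An adjusted p under 0.05 is a call. The 2 libraries of each genotype are assumed to vary like the others. Log2 changes understate those of low genes. The fit was tested on simulated data. Shares, ratios and totals were tested by exact two-sided permutation over libraries (scipy 1.17.1). Proteins were aligned with Biopython 1.88.

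The members, gene lists and tests were chosen with earlier results of these data known. Named genes are the members, TARDBP, the 5 most correlated genes and 3 neighbours on each side per member, and up to 3 genes per list by smallest adjusted p. VIM, COL3A1 and PMP22 were named among markers by that rule, while DBH, HAND2, TH, FOXD3, SOX10 and CDH19 were named as defining markers.

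In the titles siTDP-43 and siControl libraries are each numbered 1 to 3. Deviations from group means correlated at 0.336, 0.137 and 0.198 between same-numbered libraries, all over 0.1, and at -0.267 to 0.091 between libraries of unlike number. The numbers were therefore taken as possible pairs, and a blocked fit was run beside the main fit, which is unpaired. Alternatives were other pseudocounts (0.1, 5) and filters (none, 5 TPM), quantile normalization, median-of-ratios scaling, mitochondrially encoded genes left out, a fit of only the groups compared, other variance settings, the block, and removal of each library.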

Additional observations from a re-analysis of the deposited data

Results flagged for a closer look

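Of the 4 stathmins, 3 were called for a different change in the knockdown and genotype experiments, by a test of the difference itself in limma. Of all tested genes, 22% were called by that test. For STMN2 the knockdown change minus the genotype change was -2.02 on the log2 scale, with both changes negative. For STMN3 it was 0.50, with a higher level in siTDP-43 than in siControl libraries and a lower level in N352S than in WT libraries. For STMN4 it was -0.51, a call lost in 3 of 19 alternatives. The experiments differ in the agent, in handling and in TARDBP level, and their parts were not tested.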

How the results depend on the processing

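Of 543 values for 38 results over 23 alternatives, 507 kept their direction and their side of the threshold, or moved little. STMN2 and STMN3 kept their calls on knockdown in 21 of 21 alternatives, as did STMN4, and STMN2 kept its genotype call in 20 of 20. Filters, variance settings, fitting only the groups compared and the block cannot move these log2 changes, only their p-values. Nor can removal of a library from the other experiment. With the replicate number as a block, the knockdown changes were -2.89 for STMN2 (limma adjusted p = 0.00074), 0.31 for STMN3, -0.82 for STMN4 and -0.12 for STMN1, and the block changed no call of a member; 2697 genes were lower and 857 higher.

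The genotype change of STMN4 passed the threshold with a minimum of 5 TPM (-0.31), without mitochondrially encoded genes (-0.32) and without siControl library 1 or 3, with -0.38 to -0.23 over single libraries left out. That of STMN3 was -0.20 to -0.19 and missed it without WT library 79. The STMN4 difference of effects was -0.59 to -0.44 and missed it without WT 79, WT 80 or N352S 82. The STMN1 difference turned to 0.0503 under median-of-ratios scaling and 0.0491 without mitochondrial genes (-0.0619 to 0.107 over libraries left out). The STMN2 WT minus siControl change turned to 0.0398 and 0.0085 under the same settings (-0.0735 to 0.0781). The STMN4 share difference turned to 2.73 percentage points on knockdown and 0.903 for the genotype with STMN1 left out of the total, and the genotype value with STMN1 kept ranged from -0.0282 to 0.021 over libraries left out.

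Genes called lower on knockdown numbered 2076 under median-of-ratios scaling and 2015 under quantile normalization, and genes called higher 1935 and 1932 (669 to 1071 over libraries left out). With only the genotype groups fitted, 990 were lower and 901 higher in N352S cells. In the fit of all groups, the genotype counts over libraries left out ran from 1019 to 2194 lower and from 813 to 1554 higher. Calls for the difference ran from 2510 to 3721 and for WT minus siControl from 4457 to 6867. Where no alternative's construction shows it, the cause was not tested. Depth is unknown and limits are set by the number of libraries.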

Other observations

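STMN2 is silenced outside neurons by the repressor REST, as background, and TDP-43 loss is known to act on STMN2 RNA by premature polyadenylation. Of 12 genes of the REST repressor complex, 5 were called lower on knockdown and 1 higher (3 and 2 under median-of-ratios scaling), with KDM1A, a histone demethylase, at 132.2 TPM in siTDP-43 and 165.6 TPM in siControl libraries. In N352S cells 2 were lower and 1, REST itself, higher, at 13.7 TPM in N352S and 9.55 TPM in WT libraries (limma adjusted p = 0.026). All tested genes had 19.8% called lower and 6.19% higher on knockdown, and 11.9% and 8.28% in N352S cells. Of 15 neuronal genes known as targets of REST, 4 were lower and 3 higher on knockdown (3 and 3 under median-of-ratios scaling), including SNAP25, a vesicle fusion gene (62.3 TPM in siTDP-43 and 83.0 TPM in siControl libraries), and CHGA, which encodes a granule protein (2337 TPM in siTDP-43 and 1646 TPM in siControl libraries). In N352S cells 3 were lower and 5 higher, with the synaptotagmin gene SYT4 at 323.3 TPM in N352S and 98.4 TPM in WT libraries and VGF, which encodes a neuropeptide precursor, at 840.3 TPM in N352S and 410.4 TPM in WT libraries, while STMN2 was lower.

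Of 20 cleavage and polyadenylation factor genes, 7 were called lower on knockdown and 1 higher, with a median change of -0.07 against -0.08 for all tested genes. Under median-of-ratios scaling the split was 1 and 1 and the median turned to 0.02. In N352S cells 5 were lower and 0 higher (2 and 0 under median-of-ratios scaling). The all-gene shares were 19.8% lower and 6.19% higher on knockdown, and 11.9% and 8.28% in N352S cells, for these and for the markers below. NUDT21, which encodes a subunit of cleavage factor I, was lower in both experiments, at 103.9 TPM in siTDP-43 and 124.6 TPM in siControl libraries and 87.9 TPM in N352S and 108.8 TPM in WT libraries. Among marker genes, 2 of 12 noradrenergic genes were lower and 5 higher on knockdown and 3 and 3 in N352S cells, 2 and 4 of 12 mesenchymal genes on knockdown and 4 and 3 in N352S cells, and 2 and 0 of 4 Schwann cell genes on knockdown and 0 and 1 in N352S cells.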
